A study of Danio rerio with 16 samples.

Results

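DNA methylation was examined in the 1 kb bins that directly flank unmethylated stretches of the zebrafish genome. An unmethylated run was defined as 2 or more consecutive 1 kb bins, each with a methylation level below 15% at 4 and 7 hours post fertilisation (hpf). A shore was defined as a bin at 15% or more directly beside such a run. The level of a bin was its methylated calls over all calls, summed over the 8 libraries of 4 and 7 hpf. Each bin needed at least 3 CpGs and 20 calls. In all, 10334 of 924945 measured bins were shores (1.12%). The measured 5mC level at 4 and 7 hpf therefore chose both runs and shores, and the step between them is a description of that choice. The word shore refers here to position alone.

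In vertebrate genomes most CpG dinucleotides carry a methyl group on the cytosine (5-methylcytosine, 5mC), while CpG-dense stretches, many of them at gene promoters, stay free of it. The flanks of such stretches are called shores, and they are known as places where methylation differs between tissues more often than in the stretches themselves. DNA methyltransferases copy the mark after replication or place it anew, and TET enzymes oxidise it on the way to its removal. In mammals, primordial germ cells (PGCs), the precursors of sperm and eggs, lose most of their 5mC genome-wide during development.

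Whole-genome bisulfite sequencing (WGBS) reads an unmethylated cytosine as thymine, so each read covering a CpG gives 1 call. PGCs were sorted by fluorescence from embryos with a germ cell reporter transgene (kop-egfp-f-nanos3′UTR, which the methods also give a cry:dsred part) and were compared with the age-matched somatic cells sorted from such embryos. Both cell types were sampled at 4 stages (4, 7, 24 or 36 hpf), which made 8 groups. Each group had 2 libraries, 16 in all, and all groups carried the transgene. Per the methods, N-phenylthiourea was used against pigmentation in embryos older than 24 hpf. At 36 hpf, stage and this treatment therefore cannot be told apart. Somatic cells were not sorted by cell type. The methods of the study speak of technical replicates at 4 hpf, so p-values here measure the spread between libraries, which may be partly technical. A level is a share of reads, and a mixture of cells, of alleles and of reads within a bin cannot be told apart in it.

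Over 10260021 nuclear CpGs present in the tables of both replicates, depth ranged from 2.40 calls per CpG in soma at 4 hpf (replicate 1) to 21.6 in soma at 36 hpf (replicate 1). Shores were covered slightly less deeply than bins further away in all 16 libraries. They had 2.40 to 20.7 calls per CpG by library, against 2.42 to 21.7 calls per CpG in the comparison bins that start 5 kb from the same runs. Such a comparison bin had to be at 15% or more and not a shore itself, which left 7381 bins. Genes, CpG islands and base sequence were not analysed here, since no genome or annotation of danRer10, the build of the positions, was used.

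The 8568 runs were mostly short. Of these, 6692 spanned 2 kb, 1138 spanned 3 kb and 738 spanned 4 kb or more, and the longest was 70 kb. Of their 17136 ends, 10420 had a shore. At 3190 ends the next bin held no CpG shared by both tables, and at 3526 ends it held too few CpGs or calls. A total of 86 shores lay between 2 runs. Shores were thinner in CpGs than their runs, with a mean of 8.945 shared CpGs per bin, against 10.8 in the 5 kb bins and 21.2 in the outermost bin of a run.

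Most shores were highly methylated at 4 and 7 hpf, and a minority were intermediate. The median early level was 94.4% in shores and 96.5% in the 5 kb bins. The lowest 5% of shores lay at or under 26.3%, against 82.4% for the 5 kb bins. By class, 654 shores (6.33%) were at 15 to 30%, 667 (6.45%) at 30 to 50%, 630 (6.10%) at 50 to 70%, 1642 (15.9%) at 70 to 90% and 6741 (65.2%) at 90% or more. Of the 5 kb bins, 89.03% were at 90% or more. The 25th percentile was 82.25% in shores and 94.18% in the 5 kb bins. Shores were thus lower at the median as well, but the gap to the 5 kb bins was wider in the low tail.

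Some bins lay close to the threshold on either side. Among bins beside or at the end of runs with at least 50 calls in every library, the shores just inside it were chr13:141001-142000 (15.02% at 4 and 7 hpf), chr7:28386001-28387000 (15.06%) and chr5:22364001-22365000 (15.23%). Just outside it, and counted as ends of runs, were chr7:42057001-42058000 (14.98%), chr15:21767001-21768000 (14.95%) and chr9:28026001-28027000 (14.95%). The bin chr9:28026001-28027000 was at 24.7% to 54.1% in the libraries of 24 and 36 hpf. These bins were picked as the nearest to 15%, so they do not show how levels were distributed around the threshold.

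Among bins at 15% or more, the step from run to surroundings was nearly complete within 2 bins (shown in the plot of level by distance). At 36 hpf, the outermost bin of the runs was at 3.13% in PGCs and 3.10% in soma, the shores at 77.08% in PGCs and 77.05% in soma, and bins at 15% or more in the second kilobase at 88.65% in PGCs and 88.68% in soma. From the second to the 12th kilobase the level stayed between 88.65% and 89.68% in PGCs at 36 hpf. At this bin size and among bins at 15% or more, most of the dip in the average lay in the first kilobase. Over all measured bins, which include unmethylated ones, PGCs at 36 hpf were at 80.28% in the second kilobase, 76.43% in the third and 78.59% in the 12th. By this pooled level, shores, which were at 15% or more by choice, lay within the range of surroundings of any level. The medians of single bins differed. At 24 and 36 hpf the median was 90.11% in shores. It was 92.42% in all measured bins of the second kilobase and 92.61% in those of the 12th.

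**Figure D1:**
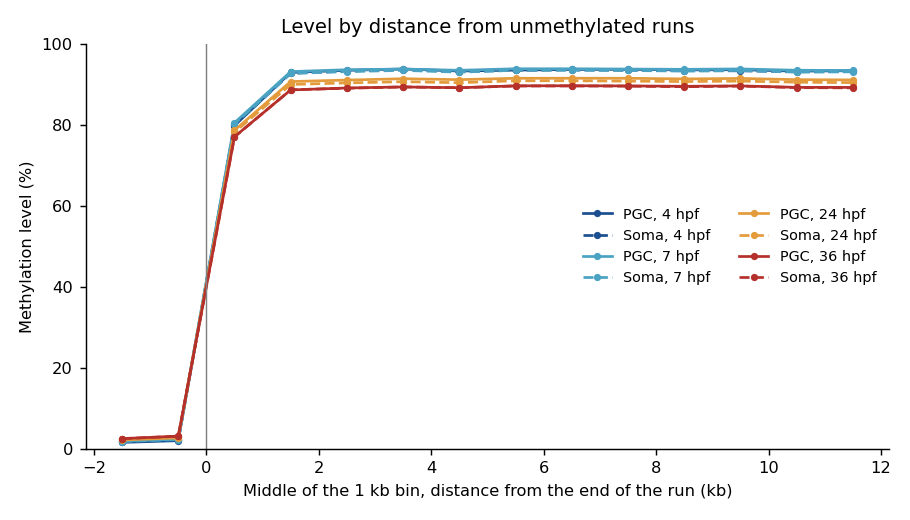
Methylation level (%) of 1 kb bins against the distance of the bin's middle from the end of the run (kb), as the mean of 2 libraries per group, with 1 line per cell type and stage. Bins left of 0 lie inside the run, the first bin right of 0 is the shore, and bins further right are those at 15% or more. The shores sit near 80% at 4 and 7 hpf and near 77% at 36 hpf, below the bins from the second kilobase on at every stage.

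Averaged over all shores, the level rose gradually across the end of the run, and an average cannot show how sharp single boundaries were. In 100 bp windows at 36 hpf, PGCs were at 1.36% between 1000 and 900 bp inside the run, 19.5% in the last 100 bp of the run, 43.0% in the first 100 bp of the shore, 70.1% at 200 to 300 bp and 84.05% at 500 to 600 bp. Where the step lay depended on the early class of the shore, which partly restates the choice of bins. Beside shores at 90% or more it lay inside the outermost bin of the run. There the last 100 bp of the run were already at 56.5% and the first 100 bp of the shore at 88.15% in PGCs at 36 hpf. In shores at 15 to 30% the first 100 bp were at 5.93% and the level climbed across the bin to 54.7% at 800 to 900 bp.

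**Figure D2:**
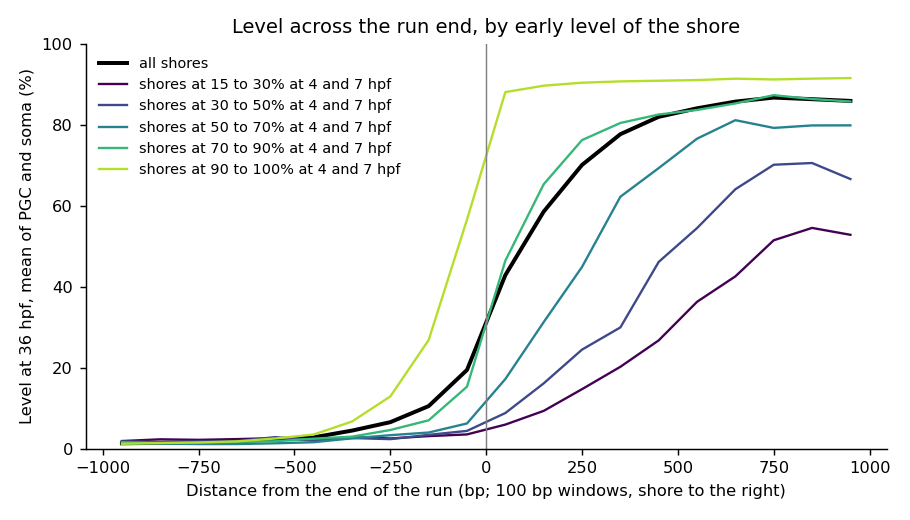
Methylation level at 36 hpf (%, mean of PGC and soma, each the mean of 2 libraries) in 100 bp windows against the distance from the end of the run (bp), with the run left of 0 and the shore right of it. The black line is all shores and each coloured line is a class of shores by their level at 4 and 7 hpf. Shores at 90% or more step up before the bin edge, while shores at 15 to 30% pass 50% only beyond 700 bp.

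Pooled over each class, the CpGs of intermediate shores included low, intermediate and high ones. States of CpGs were not counted within single shores. Shores of mixed CpGs and a mix of uniform shores therefore cannot be told apart here. At 24 and 36 hpf, stages that the choice did not use, 10.2% of 92435 shore CpGs were below 20%, 15.05% between 20 and 80% and 74.7% above 80%. In the 5 kb bins these shares were 1.165%, 8.105% and 90.7%. In shores at 15 to 30% early, 58.5% of CpGs were below 20%, 27.4% between and 14.1% above 80%. In shores at 90% or more early, 0.309% were below 20% and 92.5% above 80%. The middle classes held the most intermediate CpGs, up to 36.3% in shores at 50 to 70%.

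Few shores were unmethylated at the later stages. At 24 and 36 hpf, 106 of 10334 shores (1.03%) were below 15%, 2575 (24.9%) between 20 and 80% and 7486 (72.4%) above 80%. Of the 5 kb bins, 6 (0.0813%), 522 (7.07%) and 6842 (92.7%) were in these ranges. The median late level was 90.1% in shores and 92.8% in the 5 kb bins.

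Shores were a few points lower at the later stages in both cell types. In PGCs the 2 libraries of shores were at 79.8% and 79.9% at 4 hpf, then 81.0% and 80.1% at 7 hpf, then 79.0% and 78.35% at 24 hpf, and lastly 77.3% and 76.85% at 36 hpf. In soma they were at 80.02% and 80.01% at 4 hpf, then 80.3% and 80.2% at 7 hpf, then 78.4% and 78.0% at 24 hpf, and lastly 77.3% and 76.8% at 36 hpf. All 4 libraries of 36 hpf lay below all 4 of 24 hpf, and those of both later stages lay below the 8 early ones, which had served to choose the bins.

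The 5 kb bins moved the same way from a higher level. In PGCs they were at 93.9% and 94.1% at 4 hpf, then 94.3% and 94.2% at 7 hpf, then 91.9% and 91.9% at 24 hpf, and lastly 90.1% and 89.9% at 36 hpf. In soma they were at 93.7% and 94.05%, 94.0% and 93.75%, 91.3% and 91.2%, and 90.2% and 89.7% at the same 4 stages. The ends of the runs stayed near the floor, between 2.58% and 3.29% in the 8 libraries of 24 and 36 hpf and between 1.87% and 2.53% in those of 4 and 7 hpf.

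**Figure D3:**
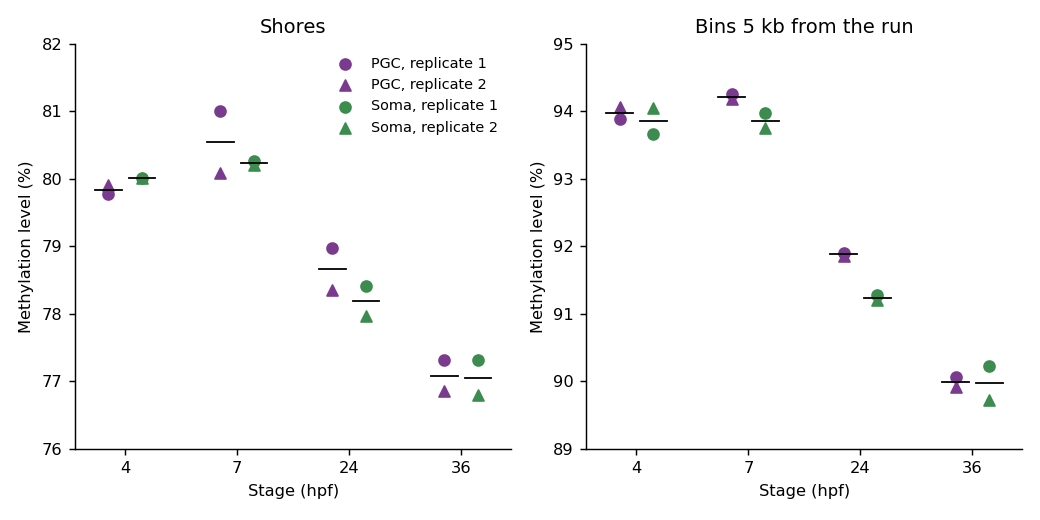
Methylation level (%) of shores (left) and of bins 5 kb from the run (right) in each library against stage (hpf). Points are libraries, coloured by cell type and shaped by replicate number, and black bars are means of 2. The axes do not start at 0 but both span 6 points. Shores at 36 hpf sit between 76.8% and 77.3%, below all libraries of 24 hpf.

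The first test asked whether shores changed between 24 and 36 hpf more or less than the bins 5 kb away. Shores averaged 77.1% ± 0.285 at 36 hpf and 78.4% ± 0.417 at 24 hpf (SD, n = 4 each, both cell types). The difference was -1.36 points (two-sided exact permutation test over libraries, p = 0.0286, the smallest p that 70 relabellings can give, and 0.0381 adjusted over 4 comparisons). The 5 kb bins averaged 89.99% ± 0.214 at 36 hpf and 91.6% ± 0.373 at 24 hpf, a difference of -1.57 points (exact permutation p = 0.0286, adjusted 0.0381). The gap of shores to the 5 kb bins was -12.9 ± 0.125 points at 36 hpf and -13.1 ± 0.303 points at 24 hpf. The gap differed by 0.210 points, which was not larger than the spread between libraries (exact permutation p = 0.286, adjusted 0.381). It was 0.262 points as the mean of bin levels (exact permutation p = 0.0286), -0.658 points with comparison bins of any level (exact permutation p = 0.114) and -0.114 points among bins at 90% or more.

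The second test asked whether shores of PGCs differ from those of soma. At 24 and 36 hpf shores averaged 77.9% ± 0.969 in PGCs and 77.6% ± 0.718 in soma (SD, n = 4 each, both stages). The difference of 0.2455 points was within the spread between libraries (exact permutation within stages, two-sided p = 0.5). The 36 relabellings cannot give a p under 0.0556, so this design could not have passed 0.05. These SDs include the difference between the stages. Shores of 24 hpf averaged 78.66% ± 0.443 in PGCs and 78.19% ± 0.324 in soma, while those of 36 hpf averaged 77.08% ± 0.325 in PGCs and 77.05% ± 0.370 in soma (SD, n = 2 each, not tested within a stage). The 5 kb bins of 24 hpf averaged 91.88% ± 0.0257 in PGCs and 91.24% ± 0.0602 in soma, while those of 36 hpf averaged 89.99% ± 0.111 in PGCs and 89.98% ± 0.353 in soma. The 5 kb bins differed by 0.325 points (exact permutation p = 0.167). The gap of shores to the 5 kb bins was -13.1 ± 0.323 points in PGCs and -13.0 ± 0.166 points in soma, and the difference of -0.0795 points was within the spread (exact permutation p = 0.667). It turned positive when PGC 24 hpf replicate 2 (0.0681 points) or soma 24 hpf replicate 1 (0.0138 points) was left out.

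To compare later with early stages, runs and shores were chosen anew on the 4 and 7 hpf libraries of 1 replicate number and measured in the other, so that the libraries measured had not chosen the bins. Since the methods speak of technical replicates at 4 hpf, the libraries that chose and those measured may share material there. This gave 10274 shores measured in replicate 2 and 10353 measured in replicate 1, of which 9770 and 10137 were also among the 10334 shores. In replicate 2 shores averaged 77.4% ± 0.782 at 24 and 36 hpf and 79.99% ± 0.0838 at 4 and 7 hpf (SD, n = 4 each). The difference of -2.62 points separated all 4 late libraries from all 4 early ones (exact permutation p = 0.0286, adjusted 0.0381). In replicate 1 they averaged 77.9% ± 0.808 at 24 and 36 hpf and 80.01% ± 0.579 at 4 and 7 hpf, a difference of -2.14 points (exact permutation p = 0.0286, adjusted 0.0381). Without 4 hpf, an alternative chosen after seeing the data, replicate 2 gave -2.67 points and replicate 1 gave -2.53 points (exact permutation p = 0.0667 for each, the smallest that 15 relabellings can give). In replicate 1 the difference was -1.865 points without PGC 7 hpf replicate 1 and -2.154 points without soma 7 hpf replicate 1 (exact permutation p = 0.0571 for each). At a threshold of 20% shores in replicate 1 differed by 0.2495 points (exact permutation p = 0.771). There 2 bins on chromosome 4, with over 50000 calls each, held 2.80% of the calls of shores, while no bin held over 0.130% at the threshold of 15%. Without these 2 bins, an alternative chosen after seeing the data, the difference at 20% was -2.43 points (exact permutation p = 0.0286).

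The 5 kb bins chosen in the same way fell by 3.26 points in replicate 2 and by 3.05 points in replicate 1 (exact permutation p = 0.0286 for each). The difference between shores and 5 kb bins was 0.638 points in replicate 2 (exact permutation p = 0.0571, adjusted 0.114) and 0.914 points in replicate 1 (exact permutation p = 0.0286, adjusted 0.114). Neither passed 0.05 after adjustment over the 4 comparisons. In replicate 1 the unadjusted p was 0.0571 (exact permutation) when the replicate 1 library of PGC 24 hpf, PGC 36 hpf, soma 24 hpf or soma 36 hpf was left out. The sign turned round among bins at 90% or more in the choosing replicate, an alternative chosen after seeing the data. There shores fell by 4.01 points and the 5 kb bins by 3.67 points in replicate 2 (difference -0.349 points), and shores fell by 3.98 points and the 5 kb bins by 3.67 points in replicate 1 (difference -0.310 points; exact permutation p = 0.0286 and adjusted p = 0.0571 for each).

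The change differed along the classes of early level. Shores at 90% or more in the choosing replicate differed by -4.01 points when measured in replicate 2 and -3.98 points in replicate 1. Those at 70 to 90% differed by -3.41 and -3.275 points. Shores at 50 to 70% differed by -1.85 and -1.08 points, and those at 30 to 50% by 0.206 and -0.0972 points. Shores at 15 to 30% had higher late values, by 1.98 points in replicate 2 and 3.29 points in replicate 1. Other than at 90% or more, these values by class are descriptions with no test.

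The order of the lowest and highest class was the same in PGCs and soma. Shores at 15 to 30% measured in replicate 2 were at 23.3% late and 21.1% early in PGCs, and at 23.9% late and 22.1% early in soma. Shores at 90% or more were at 91.9% late and 95.8% early in PGCs, and at 91.4% late and 95.5% early in soma. The difference between cell types was not tested within classes.

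In each class the late minus early value of shores lay below that of the 5 kb bins in both replicates. At 15 to 30% the value was 1.98 and 3.29 points in the 643 shores of replicate 2 and the 670 of replicate 1, against 4.76 and 7.59 points in only 53 and 54 such 5 kb bins. At 30 to 50% it was 0.206 and -0.0972 points in shores and 4.59 and 5.70 points in the 5 kb bins. At 70 to 90% it was -3.41 and -3.275 points in shores and -2.45 and -1.86 points in the 5 kb bins. Low and intermediate bins, whose values were less negative or positive, made up a larger share of shores than of 5 kb bins. The part of this in the comparison over all shores was not tested beyond the restriction to 90% or more.

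**Figure D4:**
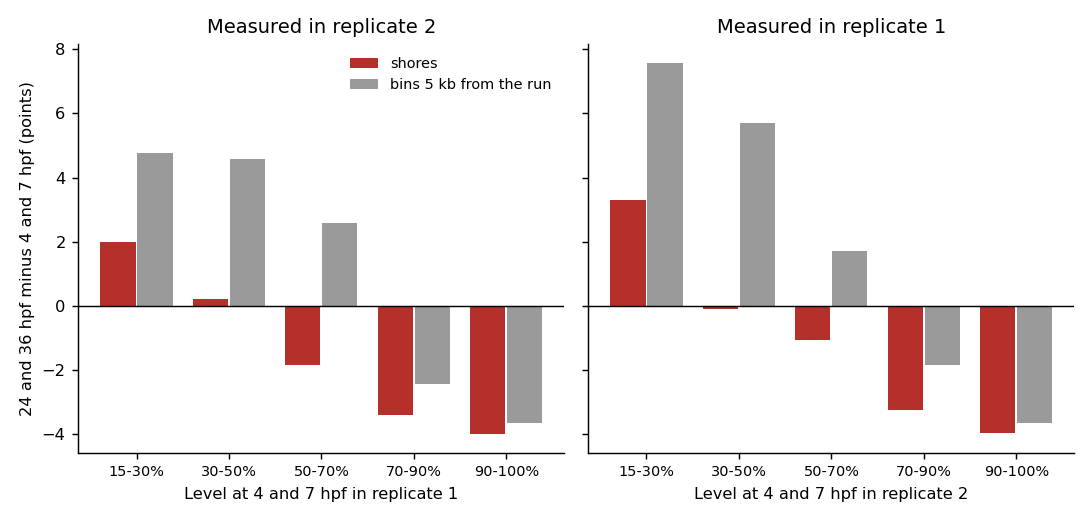
Change in methylation level (points), mean of 24 and 36 hpf minus mean of 4 and 7 hpf over both cell types, by the class of the bin at 4 and 7 hpf in the replicate that chose it. Red bars are shores and grey bars are bins 5 kb from the run, measured in replicate 2 (left) and replicate 1 (right). In each class and in both replicates the shore bar lies lower, from 1.98 and 3.29 points at 15 to 30% to -4.01 and -3.98 points at 90 to 100%.

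The late minus early values of single shores were widely spread. In replicate 2 the middle 90% of 10221 shores with at least 50 calls early and late had values between -11.8 and 4.36 points, against -10.1 and 0.987 points for the 5 kb bins. In replicate 1, which was shallower at 4 and 7 hpf, the range was wider, between -14.3 and 6.31 points in shores and between -11.6 and 2.11 points in the 5 kb bins. Counting error is part of these spreads, shores held fewer CpGs than the 5 kb bins, and the part of either was not tested. In replicate 2 values below -10 points were seen in 6.98% of shores and 5.14% of 5 kb bins, and values above 10 points in 1.58% of shores and 0.562% of 5 kb bins. In replicate 1 values below -10 points were seen in 10.1% of shores and 6.93% of 5 kb bins, and values above 10 points in 2.97% of shores and 0.832% of 5 kb bins. The single values ranged from -79.5 to 57.4 points in shores in replicate 2. Few shores were below 15% at either period in the measuring replicate, and passages from one side to the other were not counted. In replicate 2, 143 of 10274 shores were below 15% late and 131 early, and in replicate 1, 137 of 10339 late and 126 early.

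A test of every bin (quasi-binomial logistic model on calls, Benjamini-Hochberg over all bins fitted) gave the share of shores that passed an adjusted p of 0.05. All bins include those below 15% at 4 and 7 hpf, which cannot be shores (34487 of the 924945 measured bins). Their part in the shares of all bins was not split off, while the classes of early level leave them out. Late against early in replicate 2, 1592 of 9978 fitted shores (15.96%) were lower, where 22.3% of all bins and 24.3% of the 5 kb bins were lower. Gains were called in 132 shores (1.32%), against 0.706% of all bins and 0.432% of the 5 kb bins. limma on arcsine square root levels called 729 shores lower (7.31%, where 8.705% of all bins were) and 52 higher (0.521%, all bins 0.321%) there. In replicate 1, whose 4 hpf libraries were shallow, 720 of 6386 fitted shores (11.3%) were lower, where 13.5% of all bins and 15.3% of the 5 kb bins were lower. Gains were called in 101 shores (1.58%), against 0.741% of all bins and 0.446% of the 5 kb bins. limma called 526 lower (8.24%, all bins 9.33%) and 43 higher (0.673%, all bins 0.404%) there.

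Within classes of early level the picture differed. Of shores at 15 to 30%, 9.365% were called higher in replicate 2 and 8.98% in replicate 1, where 17.1% and 16.5% of all bins of that class were. Of shores at 90% or more, 20.5% were called lower in replicate 2 and 13.9% in replicate 1, where 25.55% and 15.2% of all bins of that class were. At 70 to 90% the shares called lower were 8.97% and 8.01% of shores, against 8.03% and 4.74% of all bins of that class. At 50 to 70% they were 8.66% and 6.395%, against 5.41% and 6.06%. At 30 to 50% they were 8.16% and 6.62%, against 5.18% and 4.63%. At 15 to 30% they were 2.70% and 2.93%, against 3.60% and 3.22%. Shores thus had a higher share of gains over all classes, but a lower share of gains than other bins of the same low starting class. Their share of falls was lower over all classes, but higher than in all bins of the same class from 30 to 90%. The differences within classes were not tested. Shores held fewer CpGs than the 5 kb bins, and the part of this in the calls was not tested.

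These counts depended on single libraries. In replicate 2 the shores called lower numbered 878 without PGC 7 hpf (8.80%, where 11.9% of all bins were), 930 without PGC 36 hpf (9.31%, all bins 12.7%) and 1021 without soma 4 hpf (10.2%, all bins 13.9%). They numbered 1045 without soma 7 hpf (10.5%, all bins 14.4%) and 1036 without soma 36 hpf (10.4%, all bins 14.1%). Those called higher numbered 87 without PGC 36 hpf (0.871%, all bins 0.548%). In replicate 1 the shores called lower numbered 261 without PGC 7 hpf, or 4.09%, where 3.95% of all bins and 4.235% of the 5 kb bins were lower. They numbered 310 without PGC 36 hpf (4.85%, all bins 4.95%) and 321 without soma 7 hpf (5.02%, all bins 5.30%). Those called higher numbered 64 (1.002%, all bins 0.478%), 61 (0.955%, all bins 0.479%) and 57 (0.891%, all bins 0.4575%) in the same order of libraries. In replicate 1 the share lower in shores was thus near that of all bins when 1 of these 3 libraries was left out.

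Between 24 and 36 hpf, 151 of 9951 fitted shores (1.52%) were lower at 36 hpf, where 1.7% of all bins and 1.79% of the 5 kb bins were lower. A further 16 shores (0.161%) were higher, where 0.0733% of all bins and 0.0416% of the 5 kb bins were. Within classes of early level, however, the share of gains was lower in shores than in all bins. It was 0.781% (5 of 640 shores) against 2.004% at 15 to 30%, and 1.087% (7 of 644) against 1.409% at 30 to 50%. At 50 to 70% it was 0.667% (4 of 600) against 0.803%. These counts of shores are small, and the differences from all bins were not tested. At 70 to 90% and at 90% or more, 0% of shores were called higher. The share of falls in shores was near the background over all classes. By class, it was 1.016% (16 of 1575 shores) against 0.512% of all bins at 70 to 90%. At 50 to 70% it was 1.167% (7 of 600) against 0.685%. It was 1.879% against 1.928% at 90% or more, 0.621% against 0.642% at 30 to 50% and 0.313% against 0.505% at 15 to 30%. These differences were not tested either. The falls numbered 94 without PGC 24 hpf replicate 1 (0.924%, where 0.908% of all bins were), 94 without PGC 24 hpf replicate 2 (0.941%, all bins 0.864%) and 96 without soma 24 hpf replicate 1 (0.963%, all bins 1.058%). The order of shores and all bins in falls thus turned round when either PGC library of 24 hpf was left out. The gains numbered 10 without PGC 24 hpf replicate 2 (0.1001%, all bins 0.0412%). limma on arcsine square root levels called 0 shores in either direction, where it also called 0% of all bins. These calls thus rest on the model of the counts, in shores as in all bins. Without adjustment, 968 shores (9.73%) were lower and 190 (1.91%) higher at p under 0.05 in the quasi-binomial model, where 11.8% and 0.958% of all bins were.

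No shore passed the test of PGCs against soma at 24 and 36 hpf. The quasi-binomial model called 0 of 9951 shores in either direction, where 0% of 897912 bins were called. limma also called 0 shores and 0% of all bins. Without adjustment 180 shores (1.81%) were lower and 289 (2.90%) higher in PGCs at p under 0.05, where 1.49% and 2.94% of all bins were. A single shore (0.01004%, where 0.000779% of all bins were) was lower in PGCs past the threshold when soma 36 hpf replicate 2 was left out. The change between 24 and 36 hpf also differed between cell types in 0 shores, where 0.000111% of all bins were called lower and 0% higher. Without adjustment 295 shores (2.965%) had a lower and 172 (1.73%) a higher change in PGCs at p under 0.05, where 3.243% and 1.298% of all bins had.

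Some deeply covered shores show what the calls look like. Of 716 shores with at least 50 calls in all 16 libraries, 42 (5.87%) were lower and 11 (1.54%) higher at 36 than at 24 hpf, where 4.37% and 0.345% of the 93002 bins with the same minimum were. These shares were not split by class of early level. The shores with the largest falls and gains among them are described below as chosen for that size, so their values carry no further test.

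The largest fall was at chr6:24598001-24599000, a shore of 18 CpGs to the right of a 2 kb run. In PGCs it was at 96.4% and 98.9% at 4 hpf, then 97.25% and 96.9% at 7 hpf, then 84.1% and 76.6% at 24 hpf, and lastly 54.9% and 41.7% at 36 hpf. In soma it was at 98.5% and 95.3%, 96.1% and 95.4%, 78.7% and 79.6%, and 61.7% and 51.2% at the same stages. The 4 libraries of 36 hpf did not overlap those of 24 hpf, and the mean difference was -27.4 points. Both cell types were above 95% in all early libraries and lower at each later stage.

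The shore chr22:11123001-11124000, with 19 CpGs to the right of a 13 kb run, had a mean difference of -24.35 points. In PGCs it was at 89.3% and 88.6% at 4 hpf, then 82.3% and 81.0% at 7 hpf, then 58.8% and 49.35% at 24 hpf, and lastly 27.8% and 39.75% at 36 hpf. In soma it was at 87.9% and 84.4%, 84.0% and 84.6%, 68.3% and 44.0%, and 27.4% and 28.05%. The replicates of soma at 24 hpf lay far apart here, yet all libraries of 36 hpf were below them.

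The shore chr10:27259001-27260000, with 35 CpGs to the left of a 2 kb run, was the longest in CpGs among the 5. In PGCs it was at 97.45% and 96.2% at 4 hpf, then 95.7% and 95.4% at 7 hpf, then 66.5% and 65.6% at 24 hpf, and lastly 53.9% and 46.7% at 36 hpf. In soma it was at 100% and 95.2%, 94.1% and 91.3%, 64.2% and 63.45%, and 49.5% and 42.2%. Its mean difference between 36 and 24 hpf was -16.9 points. The remaining pair of falls were chr11:40415001-40416000, with 14 CpGs and a mean difference of -21.8 points, and chr5:34023001-34024000, with 15 CpGs and -16.8 points. At chr11:40415001-40416000 the shore was at 27.4% to 37.75% in the libraries of 36 hpf and 43.5% to 68.25% in those of 24 hpf. All 5 of these shores were above 80% in all 8 early libraries.

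The largest gain was at chr10:45095001-45096000, a shore of 26 CpGs to the right of a 2 kb run. In PGCs it was at 38.9% and 35.8% at 4 hpf, then 37.8% and 36.7% at 7 hpf, then 28.4% and 44.75% at 24 hpf, and lastly 57.7% and 55.75% at 36 hpf. In soma it was at 27.45% and 51.7%, 27.9% and 35.3%, 41.5% and 45.4%, and 58.3% and 53.7%. All 4 libraries of 36 hpf were above the 12 libraries of the earlier stages, with a mean difference of 16.4 points to 24 hpf.

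The shore chr9:46775001-46776000, with 25 CpGs to the left of a 3 kb run, was higher in all libraries of 24 hpf than of 4 and 7 hpf. In PGCs it was at 12.6% and 21.15% at 4 hpf, then 17.9% and 18.9% at 7 hpf, then 50% and 51.2% at 24 hpf, and lastly 65.1% and 64.9% at 36 hpf. In soma it was at 23.6% and 19.5%, 8.235% and 32.6%, 67.7% and 56.5%, and 75.3% and 72.7%. At 36 hpf both PGC libraries and both soma libraries lay above those of their own cell type at 24 hpf, with a mean difference of 13.1 points. PGCs lay below soma at both later stages (PGC minus soma -10.26 points on average), which did not pass the threshold of the test across all bins.

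The shore chr8:48711001-48712000, with 29 CpGs beside a 2 kb run, was at 79.7% and 77.95% in PGCs and 83.7% and 83.5% in soma at 36 hpf. At 24 hpf it was at 61.5% and 64.3% in PGCs and 76.2% and 66.9% in soma, a mean difference of 14.0 points between the stages. Its early libraries were at 42.0% and 34.15% in PGCs and 39.4% and 38.55% in soma at 4 hpf, and at 68.25% and 38.2% in PGCs and 56.7% and 44.5% in soma at 7 hpf. PGC 7 hpf replicate 1 thus lay above both PGC libraries and 1 soma library of 24 hpf. The other pair of gains overlapped with the early libraries at 36 hpf. The shore chr22:35220001-35221000 was at 52.6% to 60.8% in the libraries of 36 hpf and 31.5% to 46.8% in those of 24 hpf, but 40.1% to 64.0% at 4 and 7 hpf. The shore chr14:2077001-2078000, beside a 12 kb run, was at 31.0% to 38.2% at 36 hpf and 19.8% to 25.3% at 24 hpf, but 10.6% to 51.2% in the early libraries, so its level at 36 hpf lay within the early range.

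**Figure D5:**
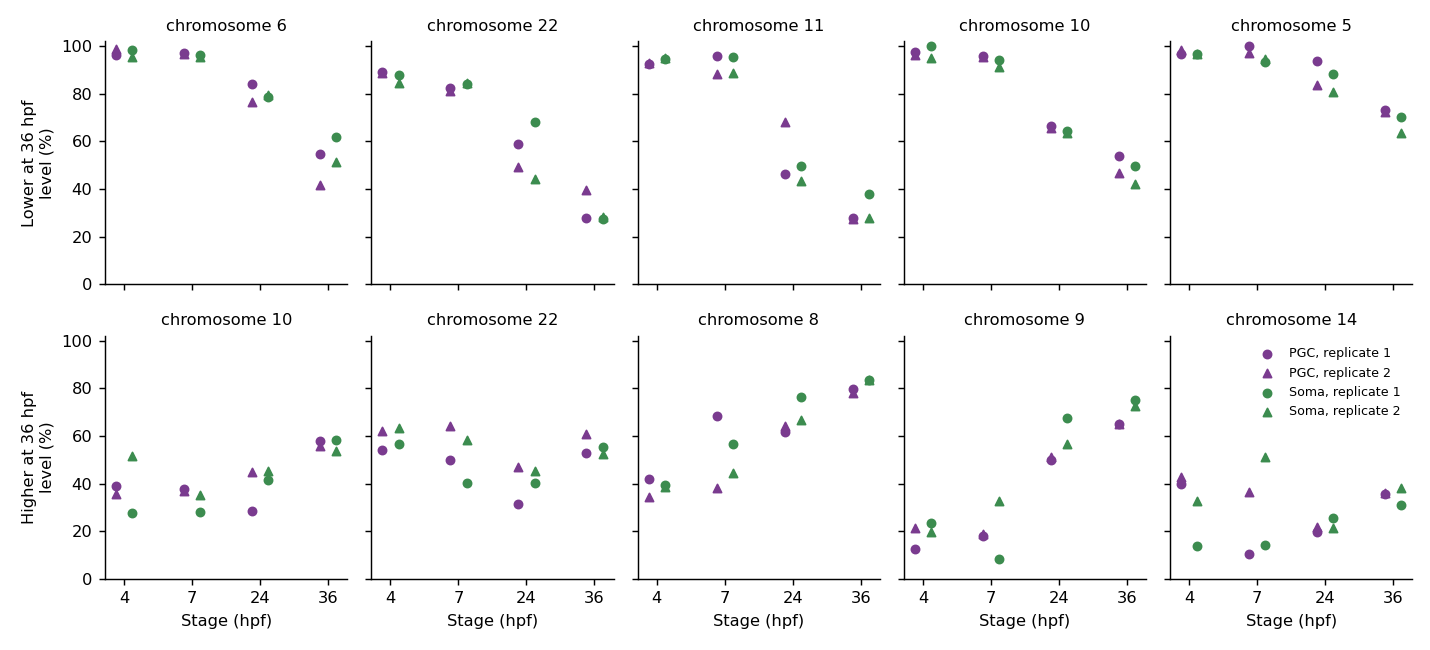
Methylation level (%) in each of the 16 libraries against stage (hpf) for the 5 shores with the largest falls (top) and the 5 with the largest gains (bottom) between 24 and 36 hpf, each titled by its chromosome. Points are libraries, coloured by cell type and shaped by replicate number. In the top row both cell types are lower at 36 hpf than at 24 hpf, and in the bottom row the shores on chromosomes 8 and 9 are higher at 24 and 36 hpf than at 4 hpf, with 1 PGC library of 7 hpf within the range of 24 hpf on chromosome 8.

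Shores of longer runs had lower pooled levels, as a description with no test, and the early values also chose the shores. The early level was 72.3% beside runs of 4 kb or more, 77.9% beside runs of 3 kb and 81.4% beside runs of 2 kb, and 24.4%, 15.4% and 11.6% of these shores were below 50% at 24 and 36 hpf. The median shore differed less, at 92.35%, 94.09% and 94.49% early in the same order. The 5 kb bins of the same runs were at 94.2%, 94.1% and 93.9% early. They were also lower beside longer runs at the later stages. In the same order they were at 90.89%, 91.46% and 91.65% at 24 hpf, and at 88.62%, 89.7% and 90.18% at 36 hpf. At 36 hpf the shores of the longest class were at 68.4% ± 0.235 and at 24 hpf at 70.3% ± 0.685 (SD, n = 4 each), and those of 2 kb runs at 78.6% ± 0.357 and 79.9% ± 0.357. Shores left and right of a run were close to each other, at 79.87% and 80.02% early.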

How the data were processed

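Bisulfite-treated DNA of sorted cells was sequenced. Per the labels and the study's methods, the authors used fastp 0.12.5 (trimming), WALT (mapping to danRer10), Picard 2.3.0 (duplicates) and MethylDackel (calls, with the 2 strands of a CpG combined and likely variant sites dropped). They deposited raw counts, that is methylated calls and coverage of every CpG in every library. There is 1 table for each replicate number, limited to CpGs with at least 1 call in its 8 libraries. A CpG is thus kept only where the shallowest library reads it. Calls per library ranged from 25228110 to 249530686. Calls are not independent molecules, and depth speaks of counting error only.

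The 10260021 nuclear CpGs in both tables were summed in 1 kb bins, with positions printed counted from 1. Levels of bin sets pool calls within a library. The bin that starts 5 kb from the run served as comparison. Single values were tested by exact two-sided permutation over libraries. It was run within stages for PGC against soma and without a block for cell type in the other comparisons. Bins with at least 10 calls in each library were tested with a quasi-binomial logistic model (Python 3.11.15, numpy 2.4.6), after tests on simulated data. Dispersion was shrunk by limma 3.58.1 (R 4.3.3), with Benjamini-Hochberg adjustment. Cell type was the covariate where stages were compared, and stage was the covariate for PGC against soma. The model of stage by cell type held both. The shores and classes were chosen with earlier results of these data known. Named shores had at least 50 calls in all 16 libraries and were the 5 largest falls and 5 largest gains past the threshold between 24 and 36 hpf, and the 3 bins on each side of the 15% threshold. Alternatives covered thresholds, minimums, comparison bins, weighting, the grid, the test, pairing and leaving out libraries.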

Additional observations from a re-analysis of the deposited data

How the results depend on the processing

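Of 161 alternative values, 116 kept their direction and side of the threshold (counts within 1.5 times). This number overstates the agreement. The permutation of PGC against soma could not pass 0.05, so its alternatives could not change side. Alternatives of the PGC against soma fit with 0 shores called in both settings were also counted as kept. Single values are gaps of shores to 5 kb bins in points. For 36 against 24 hpf the gap changed by 0.2621 (exact permutation p = 0.0286) as the mean of bin levels, -0.6582 with comparison bins of any level and -0.114 among bins at 90% or more. For PGC against soma it was 0.1736 with comparison bins of any level. Late against early with comparison bins of any level it was -1.185 in replicate 2 and -1.237 in replicate 1, and among bins at 90% or more -0.3492 and -0.3099. In replicate 2 it passed an unadjusted p of 0.05 at a threshold of 20% (0.6537), with at least 5 CpGs and 100 calls (0.6187), with the comparison bin ending 5 kb away (0.9054), on a grid shifted by 500 bp (0.7743) and without soma 7 hpf replicate 2 (0.7555). In replicate 1 it was 3.425 at a threshold of 20% (0.7424 without 2 bins of over 50000 calls), against 0.9136, and no longer passed without 4 hpf (0.7125, exact permutation p = 0.0667, the smallest possible there). The cause of these turns was not tested, except that comparison bins of any level include unmethylated ones.

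Leaving out each library gave 0.0823 to 0.3013 for 36 against 24 hpf, -0.227 to 0.06807 for PGC against soma, 0.5524 to 0.7555 in replicate 2 and 0.7748 to 1.072 in replicate 1. At 36 hpf the shores called lower numbered 94 (0.941%, all bins 0.864%) to 177 (1.778%, all bins 1.945%). Those called higher numbered 10 (0.1001%, all bins 0.0412%) to 22 (0.221%, all bins 0.0669%). In PGCs 0 to 1 (0.01004%, all bins 0.000779%) were lower and 0 (all bins at most 0.000556%) higher. Late in replicate 2, 878 (8.80%, all bins 11.9%) to 1782 (17.8%, all bins 24.9%) were lower. There 87 (0.871%, all bins 0.548%) to 145 (1.447%, all bins 0.760%) were higher. In replicate 1, 261 (4.09%, all bins 3.95%) to 847 (13.25%, all bins 16.2%) were lower. There 57 (0.891%, all bins 0.4575%) to 111 (1.737%, all bins 0.7735%) were higher.

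limma called 0 lower and 0 higher at 36 hpf, where 0% of all bins were called in either direction. Late in replicate 2 it called 729 lower (7.31%, all bins 8.705%) and 52 higher (0.521%, all bins 0.321%). In replicate 1 it called 43 higher (0.673%, all bins 0.404%). With at least 20 calls in each library 478 (14.45%, all bins 16.7%) were lower in replicate 1, of fewer shores fitted (3309).

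With the replicate number as a block, 27 shores (0.271%, all bins 0.125%) were higher at 36 hpf and 1 (0.01005%, all bins 0.0004455%) was lower in PGCs. The differences of shores and of 5 kb bins between 36 and 24 hpf then had p = 0.0556 (exact permutation within replicates, the smallest that 36 relabellings can give). The gap of 0.2099 between these stages had p = 0.1111 (exact permutation within replicates). For PGC against soma the gap of -0.07949 had p = 0.5 (exact permutation within stage and replicate, 16 relabellings). The labels do not say what a replicate number shares. For late against early, replicate number could not serve as a block because each comparison used 1 replicate number. Cell type could have served as a block, there and for 36 against 24 hpf, but the permutations did not use it. Relabelling within cell types was not run. It would leave 36 relabellings, whose smallest p is 0.0556. The exact permutation p of 0.0286 for these comparisons therefore depends on leaving cell type out.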

Other observations

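The levels of opposite shores of a run were nearly uncorrelated. Across 3359 runs with a shore on both sides, the late levels of the left and right shore had a Pearson r of 0.0638 and a Spearman rho of 0.0449, as a description across bins that share libraries. Both shores were above 80% at 24 and 36 hpf at 1775 runs (52.8%), 1 of both at 1268 runs (37.75%) and neither at 316 runs (9.41%). The late level of a shore and of its own 5 kb bin had an r of 0.0189 over 7399 pairs.

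Shores occurred on all 25 chromosomes, at 7.62 per 1000 measured bins on chromosome 4, the fewest, and 12.9 on chromosome 5, the most. The level at 24 and 36 hpf was lower than at 4 and 7 hpf on each of them, with differences between -1.19 points on chromosome 9 and -3.99 points on chromosome 11. The early values in these differences also chose the bins.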
